A study of Mus musculus with 4 samples.

Results

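The genes followed here through mouse septal tissue are 7 genes of cholesterol metabolism: Hmgcs1, Idi1, Fdft1, Sqle, Dhcr7, Srebf2 and Insig1. They were taken by symbol from the deposited tables, and all 7 were found among 15409 gene rows. Of these, 5 encode enzymes of cholesterol synthesis and 2 encode regulators of that pathway. None of the 7 encodes an uptake receptor, so the uptake side is covered below by a separate list of genes.

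The septum, a region between the lateral ventricles of the forebrain, was dissected from wild-type (WT) mice and from TCRb-/- mice, whose T cell receptor has no beta chain. All mice, controls included, were held for 30 min a day on 3 days in DecapiCones, plastic cones that restrain the animal, with death 1.5 h after the final session, so the series holds no unstressed group. Each of the 4 libraries came from the pooled tissue of 4 to 5 mice, with TCRb-/- replicate 1 and WT replicate 1 in experiment 1 and TCRb-/- replicate 2 and WT replicate 2 in experiment 2. The sources used here give no age, sex or strain background.

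The libraries held 19988137 to 26210790 reads, and values are given as CPM, the standard depth-scaled unit in which the reads of a gene are divided by the total of its library. Trbc2, a gene for the constant part of that chain, had 0 reads in both TCRb-/- libraries and 169 and 86 reads in WT replicates 1 and 2. At their depth, 0 reads allowed a level of at most 0.122 and 0.150 CPM, for counting error only. Of 8 septum markers, 7 were listed, Zic1, Zic4 and Nts among them, with a summed level of 189.5 to 248 CPM, and the dopamine receptor gene Drd3 was not analysed here. RNA was taken from cleared lysate of whole tissue, so fewer cells of a type and less RNA per cell cannot be told apart in any value below.

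Cells make cholesterol from acetyl-CoA through the mevalonate pathway. Brain cholesterol is made locally, because lipoproteins of the blood do not cross the blood-brain barrier, and oligodendrocytes and astrocytes are major producers. SREBP-2, the protein of Srebf2, is a membrane-bound transcription factor. When sterols are low it is carried by Scap to the Golgi, cut free, and switches on the synthesis genes. Insig proteins hold Scap back in the endoplasmic reticulum when sterols are high, and Insig1 is itself a target of SREBP.

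The promoters of 3 members are shown because they are read together with the values below: Hmgcs1, a classic SREBP target, Srebf2, which encodes the factor, and Insig1, which encodes its brake. The stretches are the bases that lie before both the RefSeq and the GENCODE start of the gene, on the plus strand of GRCm38.p6, from RefSeq. Capitals mark matches on either strand to TCACNCCA, the core of the sterol regulatory element bound by SREBP, and to ATTGG, the inverted CCAAT box bound by NF-Y.
Hmgcs1 (chr13:119690101-119690350): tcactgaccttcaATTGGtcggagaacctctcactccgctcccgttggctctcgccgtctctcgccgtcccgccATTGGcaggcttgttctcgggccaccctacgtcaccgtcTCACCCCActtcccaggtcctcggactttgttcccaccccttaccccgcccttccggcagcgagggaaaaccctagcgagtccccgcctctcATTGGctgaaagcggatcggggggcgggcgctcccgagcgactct
Srebf2 (chr15:82147019-82147180): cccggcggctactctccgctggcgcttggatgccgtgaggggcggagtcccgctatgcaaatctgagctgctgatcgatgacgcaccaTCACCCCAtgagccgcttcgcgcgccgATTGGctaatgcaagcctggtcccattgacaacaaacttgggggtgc
Insig1 (chr5:28071162-28071362): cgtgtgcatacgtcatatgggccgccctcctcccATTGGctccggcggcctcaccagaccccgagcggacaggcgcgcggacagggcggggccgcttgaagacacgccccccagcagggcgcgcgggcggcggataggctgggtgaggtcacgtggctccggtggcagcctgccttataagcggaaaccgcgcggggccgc

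RefSeq windows of 300 bases, from 250 before to 50 after a start, were found for 5 of the 7 members, with 3 starts for Dhcr7. The element core lay 137 bases before the RefSeq start of Hmgcs1 and 162 bases before that of Srebf2, and in no other window of a member. The gene positions given below begin at the GENCODE start, which lies elsewhere in both genes. The longer form TCACNCCAC, which contains the core, was matched in Hmgcs1 alone among the members. Over all 32851 windows, the core was present in 4.36% and the longer form in 1.24%. ATTGG was matched 4 times in Hmgcs1, 2 times in Idi1, 2 times at the third start of Dhcr7, and once each in Srebf2 and Insig1, against 37.4% of all windows with a match. The GC box GGGCGG was present in 35.7% of all windows and the E-box CACGTG, a palindrome, in 7.15%; the latter was matched in Insig1 and at the second start of Dhcr7. A match describes letters and not binding.

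**Figure D1:**
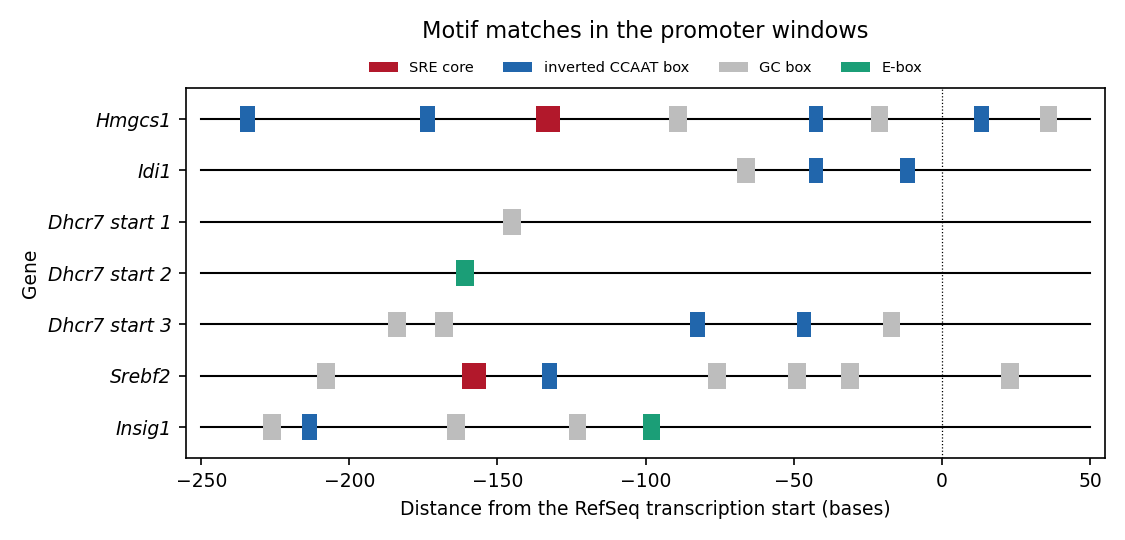
Motif matches on either strand in the RefSeq promoter windows of 5 members; the horizontal axis is the distance in bases from the transcription start and each row is 1 window. The sterol regulatory element core is drawn in Hmgcs1 and Srebf2, at 137 and 162 bases before the RefSeq start.

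Levels were first described over the 4 libraries. Hmgcs1 (chromosome 13, 119690379 to 119708260, GRCm38, protein-coding) encodes the cytosolic HMG-CoA synthase, an early enzyme of the mevalonate pathway. It had 155 CPM in TCRb-/- replicate 1 and 215 in TCRb-/- replicate 2, and 188 and 199.5 CPM in WT replicates 1 and 2. The highest and the lowest Hmgcs1 library were thus both TCRb-/-, 1.39-fold apart. Idi1 (chromosome 13, 8885501 to 8892451) encodes the isomerase that interconverts the isoprenoid building blocks. TCRb-/- replicates 1 and 2 had 6.43 and 7.90 CPM, the WT replicates 7.10 and 8.10. These rest on 158 to 186 reads a library, and the exact 95% counting intervals of the lowest and the highest library, 5.46 to 7.51 and 6.96 to 9.36 CPM, overlapped.

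Fdft1 (chromosome 14, 63145150 to 63179578, minus strand) encodes squalene synthase, the first enzyme committed to sterols. The TCRb-/- libraries had 111 and 143 CPM, the WT libraries 120.1 and 137. Both experiment 2 libraries lay above both experiment 1 libraries. Sqle (chromosome 15, 59315077 to 59331192) encodes squalene epoxidase, a slow oxygen-dependent step that follows. It had 71.3 and 89.6 CPM in TCRb-/- and 77.9 and 79.2 CPM in WT, so that the WT libraries were close together between the TCRb-/- libraries. Dhcr7 (chromosome 7, 143823145 to 143848410) encodes the reductase that turns 7-dehydrocholesterol into cholesterol. It had 47.1 and 48.4 CPM in TCRb-/- and 38.7 and 47.9 CPM in WT, and WT replicate 1 was the low library.

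Of the regulators, Srebf2 (chromosome 15, 82147181 to 82205379) stood at 99.3 and 81.4 CPM in the TCRb-/- pools, against 113 and 81.8 in the WT pools. The experiment 2 libraries were nearly equal and both below the experiment 1 libraries. Insig1 (chromosome 5, 28071363 to 28078662) had 28.8 and 29.4 CPM in TCRb-/- and 27.4 and 31.5 CPM in WT. Its highest and lowest library were 1.15-fold apart, the smallest such ratio of the 7 members.

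**Figure D2:**
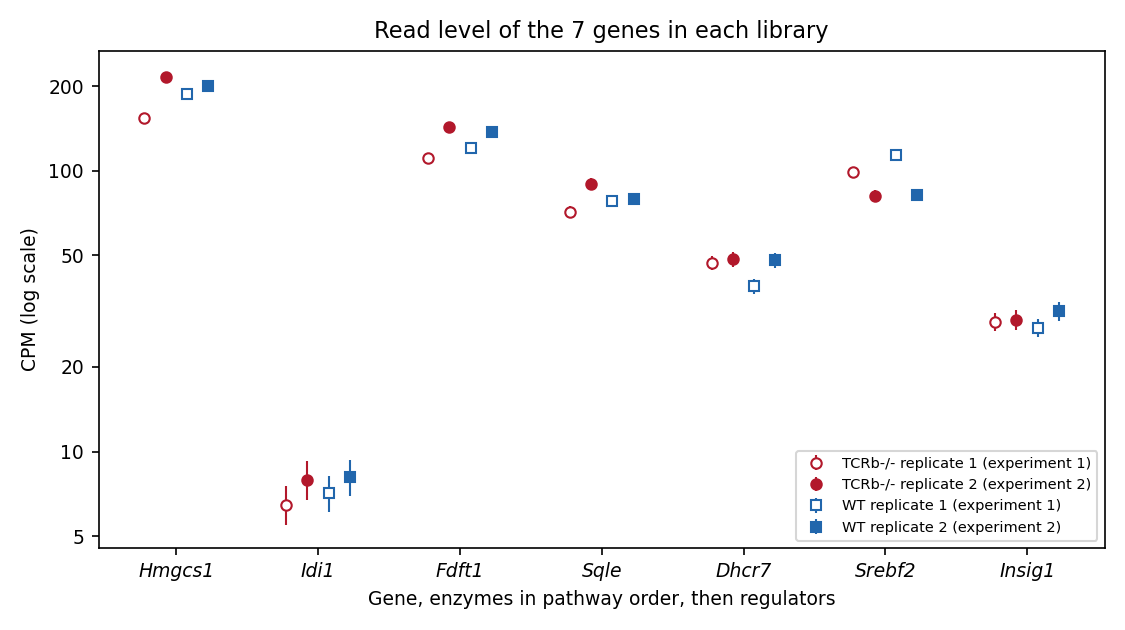
CPM of the 7 genes on a log axis in each library; open symbols are experiment 1, filled symbols experiment 2, circles TCRb-/-, squares WT, and bars the exact 95% counting interval. Filled symbols lie above open ones of both genotypes for every gene but Srebf2, where they lie below.

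To compare genes, levels were divided by the length of all annotated exons of the gene. On that scale of CPM per kb, Hmgcs1 was highest at 41.2 ± 5.62 (SD, n = 4 libraries of both genotypes and experiments), followed by Fdft1 at 30.2 ± 3.50. The ranges of this pair over the libraries overlapped. Sqle at 14.3 ± 1.36 and Srebf2 at 13.1 ± 2.14 came next and also overlapped. Insig1 at 9.47 ± 0.551, Dhcr7 at 7.83 ± 0.785 and Idi1 at 2.11 ± 0.220 followed, with ranges that did not overlap their neighbours in the order. Near-identical copies can take reads from a gene. Copies of at least 200 bases at 90% identity or more were annotated in other genes for Idi1 (3 pseudogenes, covering 22.6% of the longest transcript) and Fdft1 (1 pseudogene, 33.7%), and for none of the other 5 members. Of the exon bases of Fdft1, 774 (18.3%) overlap exons of Ctsb on the other strand, and the sources used here do not say whether reads were counted by strand. Smaller shares of Hmgcs1 (12.1%) and Idi1 (9.22%) overlap opposite-strand genes with no row in the files. The levels of Idi1 and Fdft1 are uncertain in this respect, and its part in their values was not tested.

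The design asks whether septal tissue without alpha-beta T cells differs from WT tissue after stress. No member differed between genotypes at the threshold. In limma, a linear model with variance shared across genes, an adjusted p under 0.05 was reached by 0 of 13912 genes tested (0.0%) and so by 0 of 7 members. Trbc2, with 0 reads in both TCRb-/- libraries against 169 and 86 in WT, was among the genes tested and did not pass either. A missing call in this fit therefore does not show that a gene is unchanged. Before adjustment, 43 genes (0.309%) had a p under 0.05, none of them a member. Labels put 1 library of each genotype in each experiment, and with the experiment as a block 2 genes (0.0144%) passed the adjusted threshold and 784 (5.64%) the unadjusted one, again without a member. Voom weights gave 0 members as well.

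Differences below are in log2(CPM + 1), TCRb-/- minus WT, and each SE is from the fit without the block. With the experiment as a block the SE was 0.095 for Dhcr7, 0.078 for Srebf2 and 0.096 for Hmgcs1. Dhcr7 had the highest, 0.14 (SE 0.16), with means of 47.7 ± 0.933 against 43.3 ± 6.52 CPM (SD, n = 2 pools a genotype). Srebf2 had the lowest, -0.10 (SE 0.20), with 90.4 ± 12.6 against 97.5 ± 22.3 CPM. Hmgcs1 stood at -0.09 (SE 0.19), with 185 ± 43.1 against 194 ± 8.14 CPM. For every member but Dhcr7 the SD within TCRb-/- was larger than the difference between the means, and for Dhcr7 the SD within WT was. Each of these SDs spans both experiments. Idi1, Fdft1, Sqle and Insig1 lay between -0.08 and 0.03. The adjusted limma p was 1.00 for each of the 7 members, and 0.891 to 0.994 with the experiment as a block. The 95% intervals of the blocked differences ran from -0.31 to 0.14 for Hmgcs1, from -0.20 to 0.15 for Fdft1, from -0.19 to 0.24 for Sqle, from -0.08 to 0.36 for Dhcr7 and from -0.28 to 0.08 for Srebf2. They ran from -0.41 to 0.25 for Idi1 and from -0.24 to 0.21 for Insig1. With 2 pools per genotype, differences inside these bounds remain compatible with the values. The bounds are not adjusted over genes and are not limits of detection.

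Within experiments the genotypes differed in opposite directions for several enzymes. In experiment 1 Hmgcs1 was lower in TCRb-/- by a log2 difference of -0.28, Fdft1 by -0.12 and Sqle by -0.13. In experiment 2 the same genes were higher in TCRb-/-, by 0.11, 0.064 and 0.18. Idi1 was below WT in both experiments (-0.12 and -0.031) and Dhcr7 above WT in both (0.27 and 0.013). Srebf2 stood at -0.19 in experiment 1 and -0.0054 in experiment 2. Insig1 went the other way, from 0.070 to -0.097. In all, 5 of 7 members were below WT in experiment 1, against 48.4% of all genes, and 4 of 7 above WT in experiment 2, against 50.9%. Of all genes, 27.0% were above WT in both experiments and 24.5% below in both, as were 1 and 2 members. With the 14 other synthesis enzymes added, 11 of 19 enzymes were below WT in experiment 1 and above it in experiment 2, and 1, Ebp, had the reverse pattern. Over all genes tested these shares were 23.9% and 24.6%. There is 1 library per genotype in each experiment, so the change of sign has no replicate and was not tested.

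**Figure D3:**
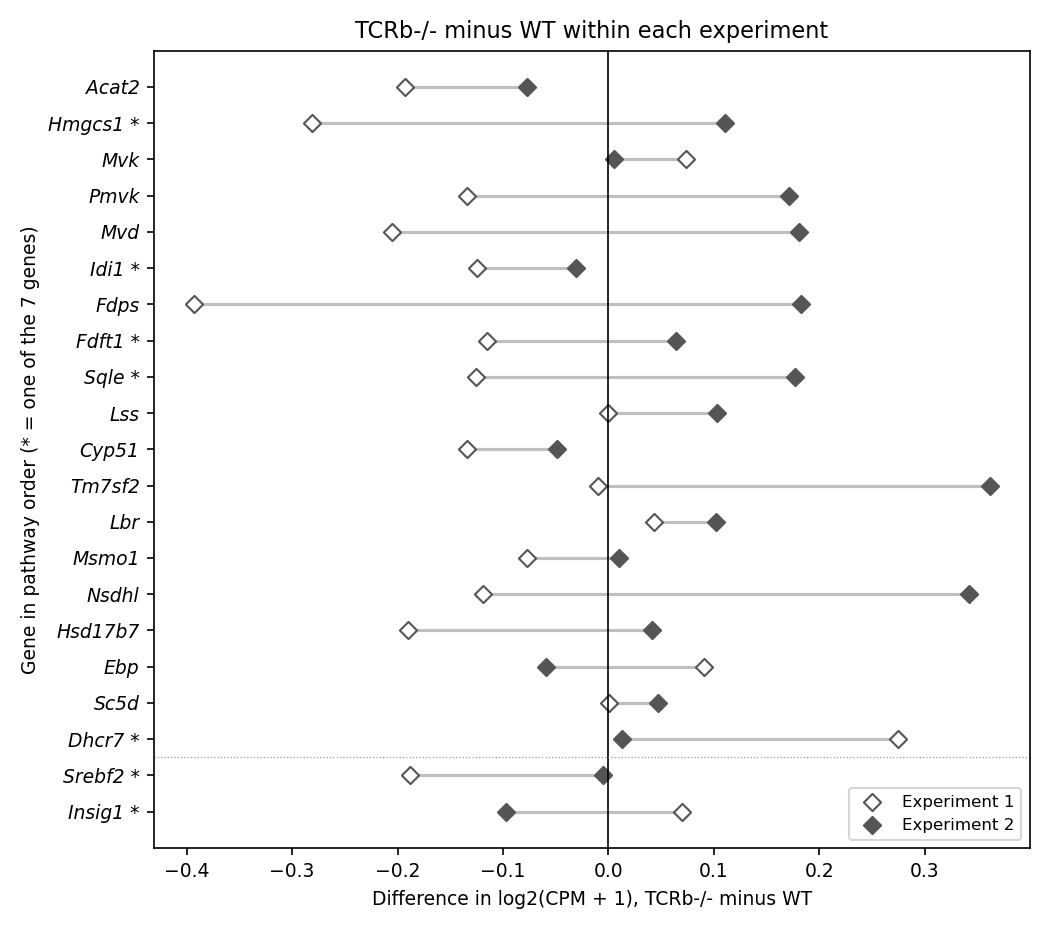
TCRb-/- minus WT difference in log2(CPM + 1) within experiment 1 (open) and experiment 2 (filled) for 19 synthesis enzymes in pathway order, then Srebf2 and Insig1. Open symbols lie left of 0 for 14 of 19 enzymes and filled symbols right of 0 for 15.

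Hmgcs1, Idi1, Fdft1 and Sqle each had their lowest value in TCRb-/- replicate 1, and Hmgcs1, Fdft1, Sqle and Dhcr7 their highest in TCRb-/- replicate 2. The TCRb-/- libraries lay both above WT for 0 of 7 members and both below for 0, against 9.76% and 8.04% of all genes. Markers of other tissues and cell types also stood at unequal levels in the pools of an experiment, with 0 called by genotype without the block. The summed level of 8 choroid plexus markers, such as Ttr, stood at 1336 and 4755 CPM in the TCRb-/- pools, against 731 and 2786 in the WT pools, and 8 of 8 were above WT in each experiment. Ttr was 1 of the 2 genes called by genotype with the experiment as a block. All 8 striatum markers, Drd1 and Drd2 among them, were above WT in TCRb-/- replicate 1 and below it in TCRb-/- replicate 2 (summed 4086 and 850 CPM against 3653 and 2181). The summed level of 9 oligodendrocyte markers, such as Mbp and Mog, ran from 6479 to 7621 CPM in TCRb-/- and from 6459.7 to 6714 CPM in WT, and 7 of 9 were above WT in experiment 1 and below it in experiment 2. Of 8 thalamus markers, 5 were below WT in experiment 1 and above it in experiment 2, the direction of 11 of 19 enzymes, with a median difference of -0.17 and then 0.73. Their summed level was 731 against 713 CPM in experiment 1 and 1732 against 1188 in experiment 2, TCRb-/- first. The part of these tissues in the values of the members was not tested.

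The experiments, which the labels give as a batch, were then compared with both genotypes on each side. In both genotypes, 6 of the 7 members were higher in experiment 2 (35.1% of all genes) and Srebf2 was lower (42.2% of all genes), and for all 7 the libraries of the experiments did not overlap. Over all genes, both libraries of experiment 2 were above those of experiment 1 for 30.1% and below for 37.2%. Only Fdft1 and Srebf2 passed the adjusted threshold in limma, 2 of 7 members against 23.7% of all genes, and 24.7% with the genotype as a block, where the same 2 members passed. By direction this was 1 member higher (8.95% of all genes) and 1 lower (14.7%), and at an unadjusted p under 0.05 it was 3 members (39.2%), Hmgcs1 being the third. The members were thus called at a share near the background. The median difference of the members was 0.17, and -0.03 over all genes tested.

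Fdft1 rose from 115 ± 6.58 CPM in experiment 1 to 139.8 ± 4.39 in experiment 2 (SD, n = 2 each), a log2 difference of 0.27 (SE 0.07, adjusted limma p 0.0289). Its adjusted p was 0.106 without TCRb-/- replicate 1 and 0.120 without TCRb-/- replicate 2. Srebf2 fell by 0.37 on the log2 scale (SE 0.08, adjusted limma p 0.0167), from 106 ± 9.89 to 81.6 ± 0.219 CPM. Without WT replicate 1 the Srebf2 difference was -0.28, with an adjusted p of 0.0634. With variances moderated without a trend neither call held (adjusted limma p 0.102 for Fdft1 and 0.0739 for Srebf2). Hmgcs1 had 171 ± 23.7 against 207 ± 11.3 CPM, a difference of 0.28 (SE 0.10) with an adjusted limma p of 0.0716. It was 0.48 within TCRb-/- and 0.085 within WT. Idi1 (0.21, SE 0.14), Sqle (0.17, SE 0.09), Dhcr7 (0.17, SE 0.10) and Insig1 (0.11, SE 0.09) did not pass, with adjusted limma p-values of 0.289, 0.177, 0.260 and 0.409.

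**Figure D4:**
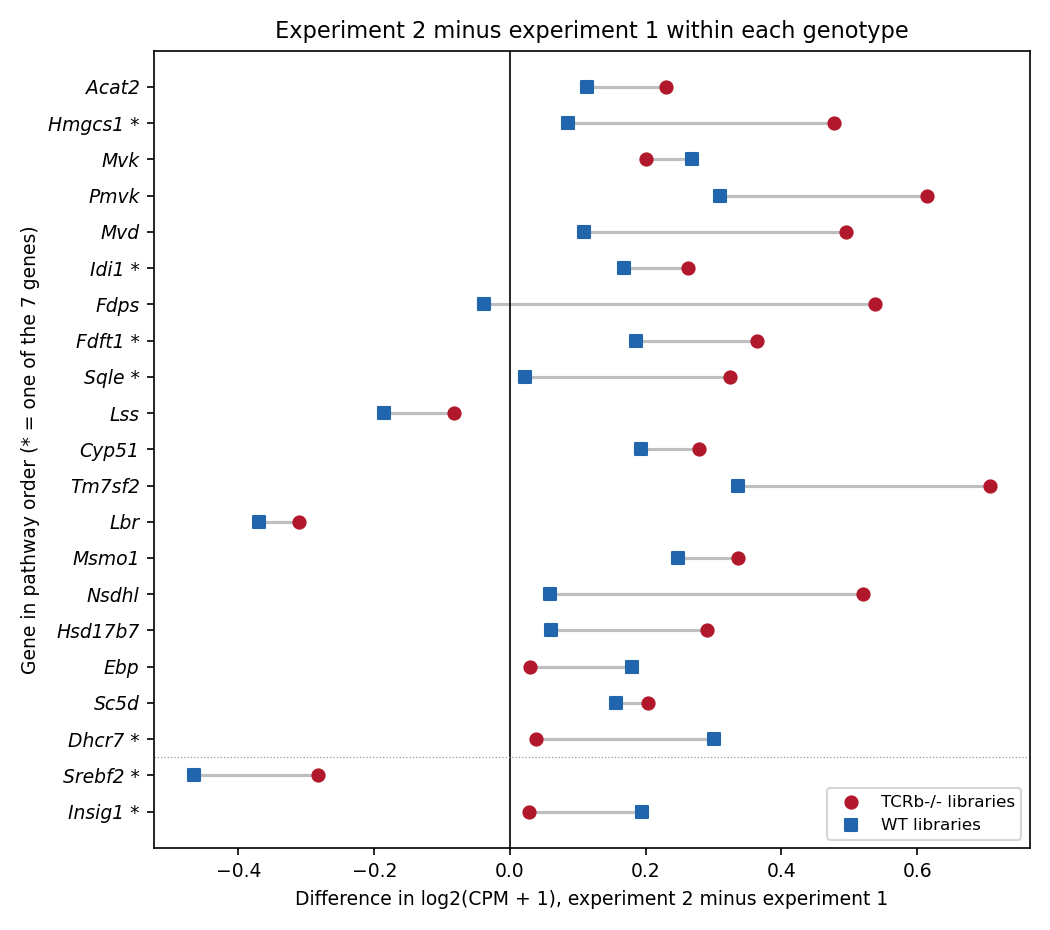
Experiment 2 minus experiment 1 difference in log2(CPM + 1) within TCRb-/- (circles) and within WT (squares) for the same enzymes and regulators. Both symbols lie right of 0 for 16 of 19 enzymes and for Insig1, and left of 0 for Lss, Lbr and Srebf2.

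The other enzymes of the pathway were examined as a list of 14. In experiment 2, 11 of 14 lay above experiment 1 without overlap (30.1% of all genes), 2 lay below (37.2% of all genes), and Fdps, which makes farnesyl diphosphate, overlapped. The median difference was 0.23. Of the 14, 3 rose and 0 fell at the adjusted limma threshold, where 8.95% of all genes were called higher and 14.7% lower. Pmvk, phosphomevalonate kinase, rose by 0.46 (80.5 ± 5.35 to 111 ± 9.42 CPM, adjusted p 0.0108), the sterol reductase gene Tm7sf2 by 0.52 (SE 0.15, 0.0388) and Msmo1, a sterol demethylation enzyme gene, by 0.29 (139 ± 5.34 to 171 ± 0.856 CPM, 0.0176). The count was 1 without TCRb-/- replicate 1 and without TCRb-/- replicate 2, 5 without WT replicate 2, 6 under quantile normalization and 0 when variances were moderated without a trend. Lss, lanosterol synthase, and Lbr, a sterol reductase that is also the lamin B receptor, were the lower ones, with differences of -0.13 (SE 0.09, adjusted p 0.306) and -0.34 (SE 0.11, adjusted p 0.0651). With the trend on gene length removed, as described below, Lss turned to 0.061 (adjusted limma p 0.677) and Lbr stayed at -0.27 (0.145). The reads of Fdps, at 2.93 to 4.70 CPM, are uncertain, because 91.4% of its longest transcript is covered by near-identical copies in 6 other genes. Those of Acat2, also on this list, are uncertain too, with 65.6% covered by a copy in 1 other gene. No other enzyme of the list had such a copy.

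The sterol-sensing machinery, a list of 11 genes, had 0 genes called higher and 2 called lower in experiment 2 at the adjusted limma threshold, a share near the 14.7% of all genes called lower. Without overlap, 2 of 11 lay above and 3 below, against 30.1% and 37.2% of all genes. Scap, the escort of SREBP, fell by 0.35 (adjusted limma p 0.0276) and Mbtps1, the site-1 protease that makes the first cut, by 0.59 (0.0126). Insig2, the second Insig gene, had 116 to 131 CPM and a difference of 0.07 (SE 0.07), and Srebf1, which encodes the SREBP of fatty acid synthesis, 60.1 to 63.6 CPM and 0.05 (SE 0.07). Between genotypes, 0 of the 11 passed with or without the block.

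Uptake and transport genes, a list of 9, had 1 gene called higher and 3 called lower in experiment 2 at the adjusted limma threshold. Without overlap, 1 lay above and 5 below, against 30.1% and 37.2% of all genes. For the uptake, export, isoprenoid and fatty acid lists, the shares of all genes called were 8.95% higher and 14.7% lower. Npc2, a cholesterol carrier of the lysosome, rose by 0.27 (adjusted limma p 0.0394). The lipoprotein receptor genes Lrp1 (fell by 0.50, adjusted limma p 0.00637), Lrp8 (fell by 0.60, 0.0317) and Scarb1 (fell by 0.49, 0.0164) were the lower ones. Of the export, storage and turnover genes, 2 of 11 were called higher in experiment 2 and 0 lower. Apoe, the main apolipoprotein of the brain, rose by 0.38 (1648 ± 194 to 2141 ± 146 CPM, adjusted limma p 0.0318) and Clu by 0.27 (0.0493). In the isoprenoid branch 1 of 7 was called lower, Nus1, a subunit of the dolichol synthase, by 0.36 (adjusted limma p 0.0238). Among 10 fatty acid synthesis genes 1 was called lower, the desaturase gene Scd2, by 0.38 (0.00907). Fasn and Acaca did not pass (adjusted limma p 0.196 and 0.958). The desaturase gene Fads2, at 0.31, had an adjusted limma p of 0.0943 without and 0.0335 with the genotype as a block.

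Gene length moved with the difference between experiments. Across 13552 genes with an exon length, which share the 4 libraries and are not independent, the difference had a Spearman rho of -0.398 with length, longer genes being lower in experiment 2. Srebf2, at 7184 exon bases, was the longest of the 7 members, and the other members had 3093 to 5817 exon bases, against a median of 4463 over all genes. With the trend on length removed, the Srebf2 difference was -0.23 (adjusted limma p 0.0832) and was no longer called. Hmgcs1 then passed at 0.35 (adjusted limma p 0.0467), Fdft1 kept its call at 0.32 (0.0242), and 16.8% of all genes were called. Other calls were lost with the differences kept in direction. Scap then stood at -0.20 (adjusted limma p 0.162), Lrp1 at -0.25 (0.0606), Scarb1 at -0.32 (0.0772) and Apoe at 0.27 (0.0982), and these did not pass with the block added either. Mbtps1 at -0.40 (adjusted limma p 0.0544), Lrp8 at -0.41 (0.122), Nus1 at -0.28 (0.0632) and Clu at 0.25 (0.0635) did pass with the genotype as a block (0.0440, 0.0465, 0.0396 and 0.0447). The Clu difference itself moved little, from 0.27. In the fit without the block, Npc2 (0.0191), Scd2 (0.0316), Pmvk (0.0429), Tm7sf2 (0.0343) and Msmo1 (0.0106) remained past the threshold.

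**Figure D5:**
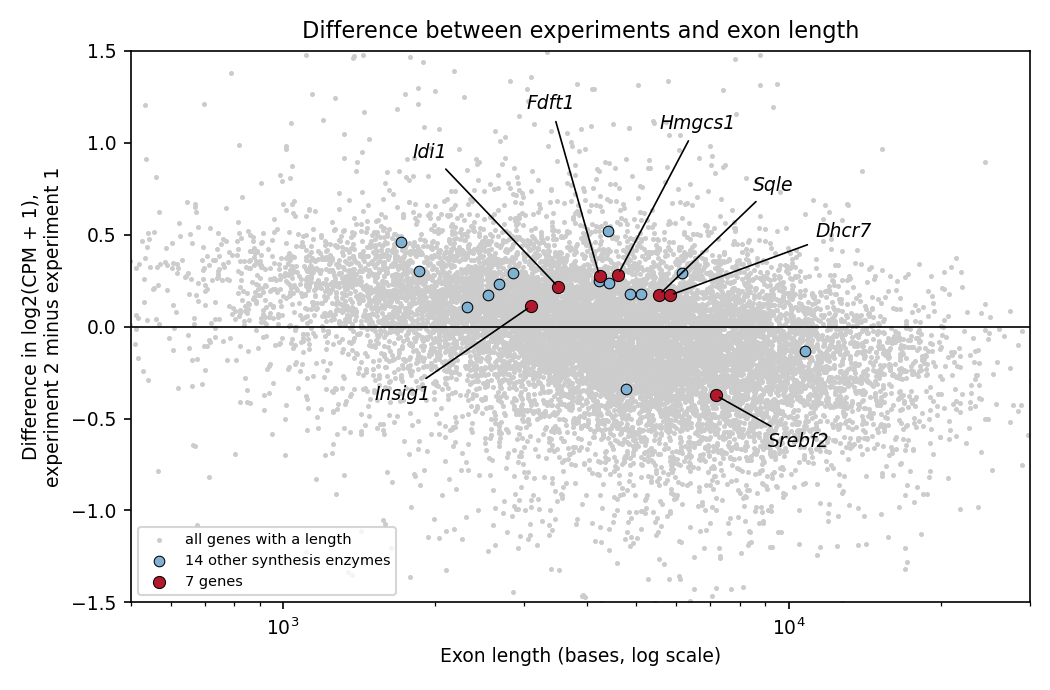
Difference between experiments in log2(CPM + 1) against exon length in bases on a log axis; grey points are all genes, blue the 14 other synthesis enzymes, red the 7 genes, and 99 genes lie outside the axes. Srebf2 is the longest and the lowest of the 7, at 7184 bases and -0.37.

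Tissue markers differed between experiments as well. Summed choroid plexus markers had 731 to 1336 CPM in experiment 1 and 2786 to 4755 in experiment 2, with 7 of 8 called higher. Striatum markers were called lower in 8 of 8, from 3653 to 4086 CPM down to 850 to 2181. Cortex and hippocampus markers were called lower in 5 of 8, from 256 to 313 CPM down to 85.6 to 90.2. In both genotypes, 7 of these 8 were lower (42.2% of all genes). Thalamus markers, such as Tcf7l2, were called higher in 6 of 8, from 713 to 731 CPM up to 1188 to 1732. In both genotypes, 8 of 8 were higher (35.1% of all genes). Of all genes tested, 8.95% were called higher and 14.7% lower. Among glial producers of cholesterol, 1 of 9 oligodendrocyte markers and 1 of 10 astrocyte markers were called, both lower, with summed levels of 6459.7 to 7621 and 2574 to 2827 CPM in experiment 1 and 6479 to 6714 and 2606 to 2793 CPM in experiment 2. Of the septum markers listed, 3 of 7 were called higher. Of 8 microglia markers 1 was called, lower, and of 5 endothelial markers tested none was. No listed marker was at 0 in any library. The part of tissue makeup in the differences of the members was not tested.

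The mean profile of the 7 members, each centred on its own mean in log2(CPM + 1), was -0.10 and 0.077 in TCRb-/- replicates 1 and 2 and -0.026 and 0.044 in WT. Over the 4 libraries, Idi1 (root mean square difference 0.0552) and Sqle (0.0604) followed this profile most closely, then Insig1 (0.0677) and Fdft1 (0.0789). Hmgcs1 (0.113) and Dhcr7 (0.125) lay farther off and Srebf2 (0.252) farthest. The members make up the profile, so their distances are not independent of it. Of 9706 genes outside the lists with a mean of at least 10 CPM, the nearest to the profile were Cwc15, Pacsin1, Mphosph6, Ddx28 and Irf2, at 0.00571 to 0.00698, where the median gene was at 0.131. Likeness over 4 libraries is a description of these pools.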

How the data were processed

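RNA from 4 pools of septal tissue was made into SMARTer ultra-low-input libraries and run on a HiSeq sequencer of Illumina, per the labels' protocols. The submitters' processing notes name HISAT2 2.1.0, SAMtools 1.3, HTSeq 0.9.1, R 4.0.5, limma 3.46.0 and the mm10 build. The sources used here do not give the tools' roles, the annotation or the filter on rows. The deposited values are log2 CPM, with 0.5 added to the reads and 1 to the library total, as worked out from the values: they gave whole reads for 100% of values within 0.001 reads. The files hold 15426 rows, of which 17 are spike-in RNAs and were left out. Intervals and floors cover counting error only, since amplified reads are not independent molecules.

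CPM of the library total was transformed to log2(CPM + 1), on which changes of low genes look smaller than they are, and the 13912 genes averaging 1 CPM or more were fitted with limma 3.58.1 in R 4.3.3 (trended empirical Bayes, two-sided, Benjamini-Hochberg over all genes, threshold 0.05), with genotype or experiment as the term. With 2 pools a group, an exact permutation test cannot give a p below 0.333. Without the block, genotype p-values are set against a spread that holds the difference between experiments. Those between experiments are set against a spread that holds the difference between genotypes. Each experiment has 1 pool per genotype, so the spread between like pools was not measured. Per the labels, equal replicate numbers mark a shared experiment and so pair libraries across genotypes. Deviations of same-numbered libraries correlated at 0.719, and the block was an alternative. Other alternatives were pseudocounts, filters, scalings, moderation without a trend, voom weights, single libraries left out and, added after seeing the data, removal of a lowess trend on exon length. The fit was tested on simulated data drawn without a difference between experiments, so that test does not cover the effect of such a difference. Positions and exon lengths are from GENCODE M21 (GRCm38, the same assembly as mm10), promoters from RefSeq (GRCm38.p6), and copies from BLAST 2.17.0. Other steps ran in Python 3.11.15, using matplotlib 3.10.9, numpy 2.4.6, scipy 1.17.1 and pandas 2.3.3.

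The members and gene lists were chosen with earlier results of these data known, and the promoter motifs after the sequences had been seen. Some genes of the lists are not reported here, and the lists' counts leave them out. Named were the 7 members, Trbc2, genes of the cholesterol lists by role, markers in tissue checks, and the 5 genes nearest to the members' mean profile.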

Additional observations from a re-analysis of the deposited data

Results flagged for a closer look

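For 4 of the 7 genes the TCRb-/- minus WT difference in log2(CPM + 1) had opposite signs in the experiments. The differences in experiments 1 and 2 were -0.28 and 0.11 for Hmgcs1, -0.12 and 0.064 for Fdft1, -0.13 and 0.18 for Sqle, and 0.070 and -0.097 for Insig1. Each rests on 1 library per genotype and experiment, so the difference between the experiments was not tested, and over all genes tested 23.9% and 24.6% showed such a change in the 2 directions.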

How the results depend on the processing

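The alternatives with the length trend removed were chosen after seeing the data. By genotype, 0 members and 0 of 14 other enzymes were called under every alternative. Without the block 0 genes were called over the whole table with all libraries. With the replicate block it was 2, as with the block and voom weights, quantile normalization, a pseudocount of 0.1 or the length trend removed. The block changed no member's call in either comparison. Between experiments the counts were 3292 genes, 2 members and 3 other enzymes. Moderation without a trend gave 629, 0 and 0. The other enzymes called were 6 under quantile normalization and 5 with the length trend removed, in each case with or without the replicate block. The cause was not tested. No member's difference reversed with all libraries. Of 194 values of single members with all libraries, 188 kept direction and side of the threshold. Idi1, under 10 CPM, has no value under the stricter filter.

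Leaving out 1 library leaves a lone sample, assumed to vary like the others, and unbalances the experiments. Ranges were 0 to 47 genes by genotype (47 without TCRb-/- replicate 1), 1406 to 3390 genes between experiments (1406 without TCRb-/- replicate 1, 1823 without TCRb-/- replicate 2, 1637 without WT replicate 1), 1 to 3 members and 1 to 5 other enzymes. By genotype Hmgcs1 ranged from -0.32 to 0.15, Idi1 from -0.21 to 0.053, Fdft1 from -0.21 to 0.16, Sqle from -0.14 to 0.19, Dhcr7 from -0.0068 to 0.29, Srebf2 from -0.33 to 0.14 and Insig1 from -0.11 to 0.084. Of 56 values of single members with 1 library left out, over both comparisons, 11 reversed direction. All 11 were differences by genotype, and no difference between experiments reversed. Between experiments the Hmgcs1 difference was 0.42 without WT replicate 1 and 0.34 without WT replicate 2. It was 0.14 without TCRb-/- replicate 1 and 0.23 without TCRb-/- replicate 2. Of the 7 members Idi1 has the fewest reads, 158 to 186 a library.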
